A study of Rattus norvegicus with 9 samples.

Results

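The COP9 signalosome was examined here through the transcripts of its subunits in primary rat hippocampal neurons. The 10 subunit genes (Gps1, Cops2, Cops3, Cops4, Cops5, Cops6, Cops7a, Cops7b, Cops8 and Cops9) were taken by symbol from 34092 genes of the expression table, and all 10 passed the minimum mean level, as did 15958 genes in all. Cops9 was selected on its own differences, since it exceeded the threshold for differentially expressed genes (DEGs) against vehicle with both peptides in the fit over 9 libraries, so its values in those comparisons are a description without a test. The other 9 subunits were included as members of the same complex, whatever their values.

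The neurons came from hippocampi of wild-type rat fetuses at embryonic day 17 and were grown for 7 days in vitro without inhibitors of cell division. Cultures then received vehicle, 1 nM human procalcitonin (PCT) or 1 nM human N-terminal procalcitonin (NPCT), a peptide cleaved from PCT, for 24 h. Each group has 3 poly(A)-selected RNA-seq libraries, and the comparisons ask how each peptide changed the transcriptome and where the peptides differed. The study's methods mention RNA from pooled biological triplicates, so the spread between the 3 libraries of a group may be technical, and p-values measure that spread alone.

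The COP9 signalosome is a nuclear and cytoplasmic protein complex that removes the ubiquitin-like protein NEDD8 from cullins, the scaffolds of the cullin-RING ubiquitin ligases. Removal of NEDD8 switches the ligases off and lets them exchange substrate receptors, so cycles of neddylation and deneddylation set which proteins are ubiquitinated. Its subunits fall into a catalytic pair with MPN domains, Cops5 and Cops6, a scaffold of subunits with PCI domains, and the small acidic subunit Cops9, which joined the list of subunits last. The proteasome lid and the translation factor eIF3 are built on the same MPN and PCI plan, and in neurons cullin-RING ligases are known for roles in dendrite growth and synapse remodelling.

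Libraries held 13573056 to 17211642 fragments assigned to genes, with 19206 to 19696 genes above 0. Levels are given as FPKM, fragment counts scaled by gene length and by library total, which permits comparison between genes of different length. PCT replicate 3 stood apart within its group, with a chi-square per degree of freedom of 18.9 and 21.6 against its sister libraries, while PCT replicates 1 and 2 gave 6.38. NPCT replicate 3 differed from its sister libraries to a smaller extent (10.6 and 10.8, beside 4.38 for NPCT replicates 1 and 2), and the vehicle pairs gave 4.16 to 4.97. All 12 neuronal markers exceeded 1 FPKM in every library, with a summed level of 2278 to 2356 FPKM in vehicle, 2157 to 2222 with NPCT and 2249 to 2462 with PCT. The cultures were mixed, however, as all 8 astrocyte markers were also above 1 FPKM and summed to 2438 to 2616 FPKM in vehicle, 2385 to 2658 with NPCT and 2101 to 2170 with PCT. The 9 markers of the oligodendrocyte lineage summed to 474.0 to 490.4, 516 to 549.8 and 430 to 447 FPKM in vehicle, NPCT and PCT, all 9 above 1 FPKM, and the 8 microglial markers in the table summed to 23.5 to 34.2, 34.7 to 157 and 11.5 to 15.3 FPKM in the same order, with 6, 6 and 3 of them above 1 FPKM. The 6 genes of dividing cells summed to 60.6 to 82.0 FPKM over the 9 libraries, and endothelial Cldn5 was at 0 throughout, while the 5 endothelial and pericyte markers in the table summed to 3.74 to 4.87 FPKM. The part of these shifts in cell composition in the results on the complex was not tested.

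Cops9 was the most abundant subunit transcript per length, and its level was higher with both peptides (gene ENSRNOG00000037402, chr9:99813332-99818262 on the minus strand in Rnor_6.0). Its level was 68.8, 67.9 and 77.5 FPKM in vehicle replicates 1, 2 and 3 (71.4 ± 5.26, SD, n = 3). With NPCT it was 146, 124 and 161 FPKM (144 ± 18.3, SD, n = 3), and with PCT it was 93.9, 128 and 156 FPKM (126 ± 31.3, SD, n = 3). All 6 peptide-treated libraries lay above the 3 vehicle libraries, and the PCT libraries were spread more widely than the NPCT libraries, which they overlapped. In a bulk culture, a higher level in the same cells and a larger share of the cells that express the gene cannot be told apart.

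Between 492 and 1333 fragments lay behind each of these values, and between 474 and 2083 behind those of the other subunits. The log2 fold change of Cops9 was 1.00 (SE 0.17, 2.00-fold) with NPCT and 0.79 (SE 0.17, 1.73-fold) with PCT against vehicle. These differences placed Cops9 at rank 393 of 15958 genes ordered by rise with NPCT and at rank 447 with PCT. The shares of genes with a lower signed log2 fold change, falls of any size included, were 97.5% and 97.2%. The value with PCT rested in part on the third library, being 0.62 without PCT replicate 3 and 0.99 without PCT replicate 1. Between NPCT and PCT the log2 difference was 0.21, and it ranged from 0.015 to 0.38 when single libraries were left out. Because Cops9 was selected on the calls against vehicle, the share of all genes that were DEGs there (0.219% with NPCT and 2.31% with PCT, by a fold change above 1.5 with adjusted p no higher than 0.05) is printed for scale only. The call on which Cops9 was selected depended on the processing, which is given as a description of that selection and not as evidence for the difference. It was made in 11 of 21 processing settings with NPCT and in 12 with PCT, while the log2 fold change was between 0.84 and 1.10 and between 0.62 and 0.99. The call was lost with both peptides without any single vehicle library, without PCT replicate 2, without NPCT replicate 1 or 2 and with no filter, and with one peptide without NPCT replicate 3 or PCT replicate 3, at a pseudocount of 0.01, with a straight length slope removed or in the fit of 2 groups. Of the other subunits, the highest fold against vehicle was 1.18, for Cops3 with PCT, and the lowest was 0.699, for Cops2 with NPCT, both inside the 1.5-fold limit in either direction.

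**Figure D1:**
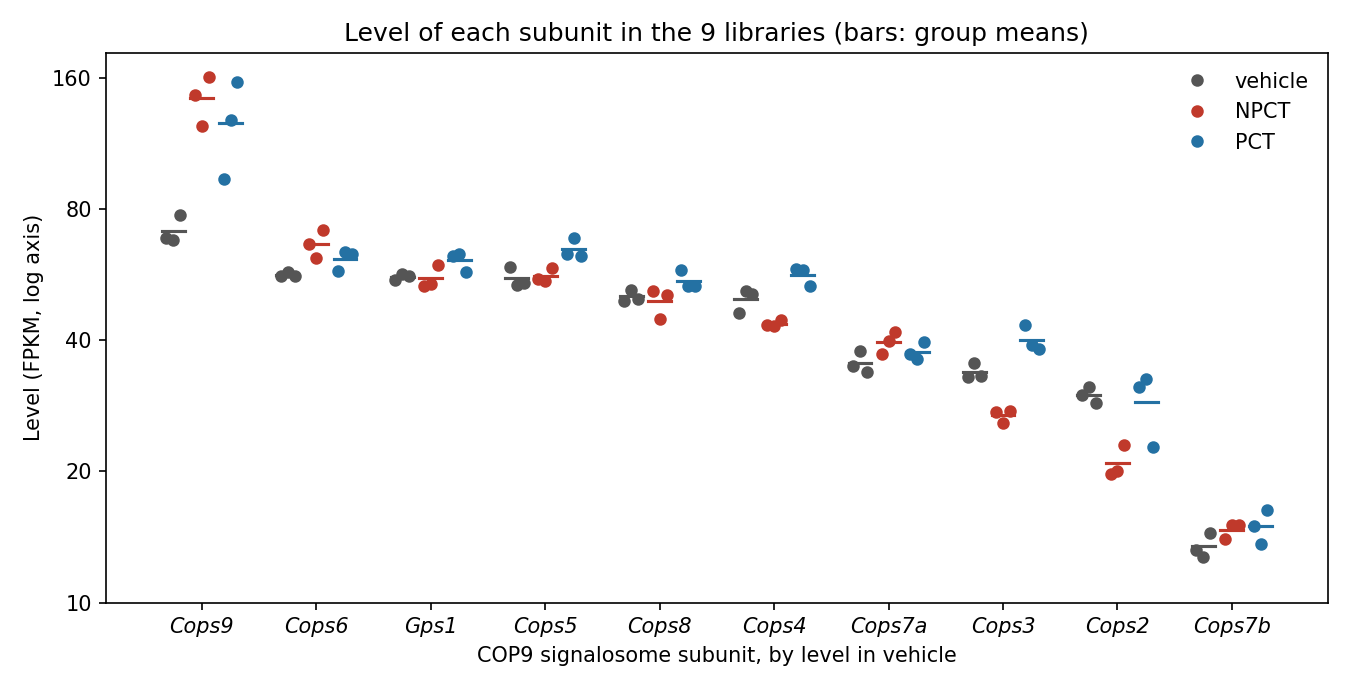
Level of each COP9 signalosome subunit in FPKM (vertical log axis) in the 3 vehicle, 3 NPCT and 3 PCT libraries, with subunits ordered by their level in vehicle and short bars for group means. Cops9 lies between 67.9 and 77.5 FPKM in vehicle and between 93.9 and 161 FPKM with the peptides. The level of Cops3 is lower with NPCT, at 25.9 to 27.5 FPKM, than in its vehicle and PCT libraries.

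In vehicle the subunits fell into a graded order. Cops9 stood 1.26-fold above the next subunit, and its vehicle libraries did not overlap with those of any other. Cops6 (56.6 ± 0.67 FPKM), Gps1 (56.0 ± 0.95) and Cops5 (55.5 ± 3.07, SD, n = 3 each) followed with overlapping ranges. Cops8 (50.4 ± 1.48) and Cops4 (49.7 ± 3.02) overlapped with each other, and so did Cops7a (35.5 ± 1.97) and Cops3 (33.8 ± 1.35). Cops2 came next at 29.9 ± 1.24 FPKM, and Cops7b was lowest at 13.5 ± 0.86 FPKM, 2.22-fold below Cops2 and apart from it in all libraries. RefSeq lists 2 pseudogenes of Cops7b and 3 of Cops8, so the levels of these genes could include or lose reads shared with a copy.

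Neither member of the catalytic pair was called in the fit over 9 libraries. Cops6, the inactive MPN partner (chr12:19303387-19306226, plus strand), read 56.2, 57.4 and 56.2 FPKM in vehicle, 66.5, 61.7 and 71.8 with NPCT, and 57.6, 63.7 and 63.1 with PCT. All NPCT libraries were above all vehicle libraries, at a log2 fold change of 0.23 (SE 0.068, limma adjusted p = 0.0713), and with PCT the value was 0.12 (limma adjusted p = 0.398). Cops5, the subunit whose metalloprotease site cuts NEDD8 from the cullin (chr5:8876044-8894339, plus strand), read 59.1, 53.4 and 54.1 FPKM in vehicle, 55.4, 54.8 and 58.5 with NPCT, and 63.2, 68.7 and 62.6 with PCT. Its vehicle and NPCT libraries overlapped and its PCT libraries were higher than both, with a log2 fold change of 0.22 for PCT against vehicle (SE 0.063, limma adjusted p = 0.089) and -0.20 for NPCT against PCT (limma adjusted p = 0.0579).

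Among the PCI scaffold subunits, Cops2, Cops3 and Cops4 were lower with NPCT than with PCT by the adjusted p, and their NPCT libraries lay below all vehicle libraries. Mean levels of Gps1 and Cops8 were also lowest with NPCT, but their NPCT and vehicle libraries overlapped. Cops3 (chr10:46182687-46206135, minus strand) read 33.0, 35.4 and 33.1 FPKM in vehicle, 27.3, 25.9 and 27.5 with NPCT, and 43.4, 38.9 and 38.1 with PCT. The groups did not overlap at all, with NPCT lowest and PCT highest. Cops3 was lower with NPCT than with PCT by 0.57 on the log2 scale (SE 0.067, 0.672-fold, limma adjusted p = 0.00191), just short of the 1.5-fold limit for a DEG. Against vehicle its log2 fold change was -0.33 with NPCT (SE 0.067, limma adjusted p = 0.0509) and 0.24 with PCT (SE 0.067, limma adjusted p = 0.0817).

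Cops4, another PCI subunit of the core (chr14:10718844-10749120, minus strand), showed the same order at a smaller size. It read 46.3, 52.0 and 51.0 FPKM in vehicle, 43.4, 43.2 and 44.4 with NPCT, and 58.2, 57.8 and 53.4 with PCT, and again the groups did not overlap. It was lower with NPCT than with PCT by 0.37 on the log2 scale (SE 0.062, limma adjusted p = 0.00807), while the values against vehicle were -0.18 with NPCT (limma adjusted p = 0.0962) and 0.18 with PCT (limma adjusted p = 0.147).

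Cops2, which is closely related to a lid subunit of the proteasome (chr3:118109406-118137191, minus strand), had the lowest log2 fold change of the 10 subunits with NPCT. It read 29.9, 31.2 and 28.7 FPKM in vehicle, 19.7, 20.1 and 23.0 with NPCT, and 31.3, 32.6 and 22.8 with PCT. The NPCT libraries lay below vehicle, at a log2 fold change of -0.52 (SE 0.13, 0.699-fold, limma adjusted p = 0.0582), whereas PCT replicate 3 fell among the NPCT libraries and apart from the other PCT libraries. Cops2 was lower with NPCT than with PCT by 0.45 on the log2 scale (SE 0.13, limma adjusted p = 0.0466). This call held in 8 of 21 processing settings (limma adjusted p of 0.00146 to 0.15), and without PCT replicate 3 the difference was -0.61. The first 354 bases of Cops2 overlap with Galk2 on the opposite strand, and the sources used here do not say whether fragments were counted by strand. Galk2, a sugar kinase, was at 7.42 FPKM on average with differences of 0.19, 0.11 and 0.073 in the NPCT, PCT and direct comparisons.

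Gps1, a further PCI subunit (chr10:109966904-109971911, plus strand), read 55.0, 56.9 and 56.0 FPKM in vehicle, 53.4, 53.9 and 59.5 with NPCT, and 62.4, 63.2 and 57.3 with PCT. Its log2 fold change was -0.012 with NPCT and 0.12 with PCT (SE 0.063 for both, limma adjusted p = 0.919 and 0.337). Cops8, the smallest PCI subunit (chr9:97772184-97782067, plus strand), read 49.3, 52.1 and 49.9 FPKM in vehicle, 51.9, 44.9 and 50.9 with NPCT, and 57.9, 53.2 and 53.3 with PCT. Its log2 fold change was -0.037 with NPCT (limma adjusted p = 0.758) and 0.12 with PCT (limma adjusted p = 0.403). For both genes the PCT libraries were above all vehicle libraries, and the NPCT libraries overlapped with vehicle.

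Cops7a and Cops7b are paralogs that occupy the same place in the complex, so a complex holds either of them. Cops7a (chr4:157479549-157486914, minus strand) read 34.9, 37.7 and 33.9 FPKM in vehicle, 37.2, 39.9 and 41.9 with NPCT, and 37.1, 36.3 and 39.6 with PCT. Cops7b (chr9:93607477-93633064, plus strand) read 13.2, 12.7 and 14.4 FPKM in vehicle, 14.0, 15.0 and 15.1 with NPCT, and 15.0, 13.6 and 16.3 with PCT. Cops7a made up 72.5% ± 2.29 of their summed FPKM in vehicle, 72.9% ± 0.503 with NPCT and 71.6% ± 0.962 with PCT (SD, n = 3, two-sided exact permutation test against vehicle, p = 0.7 for both peptides). The difference was within the spread between libraries, in a test that with 3 libraries a group cannot go below an exact p of 0.1.

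**Figure D2:**
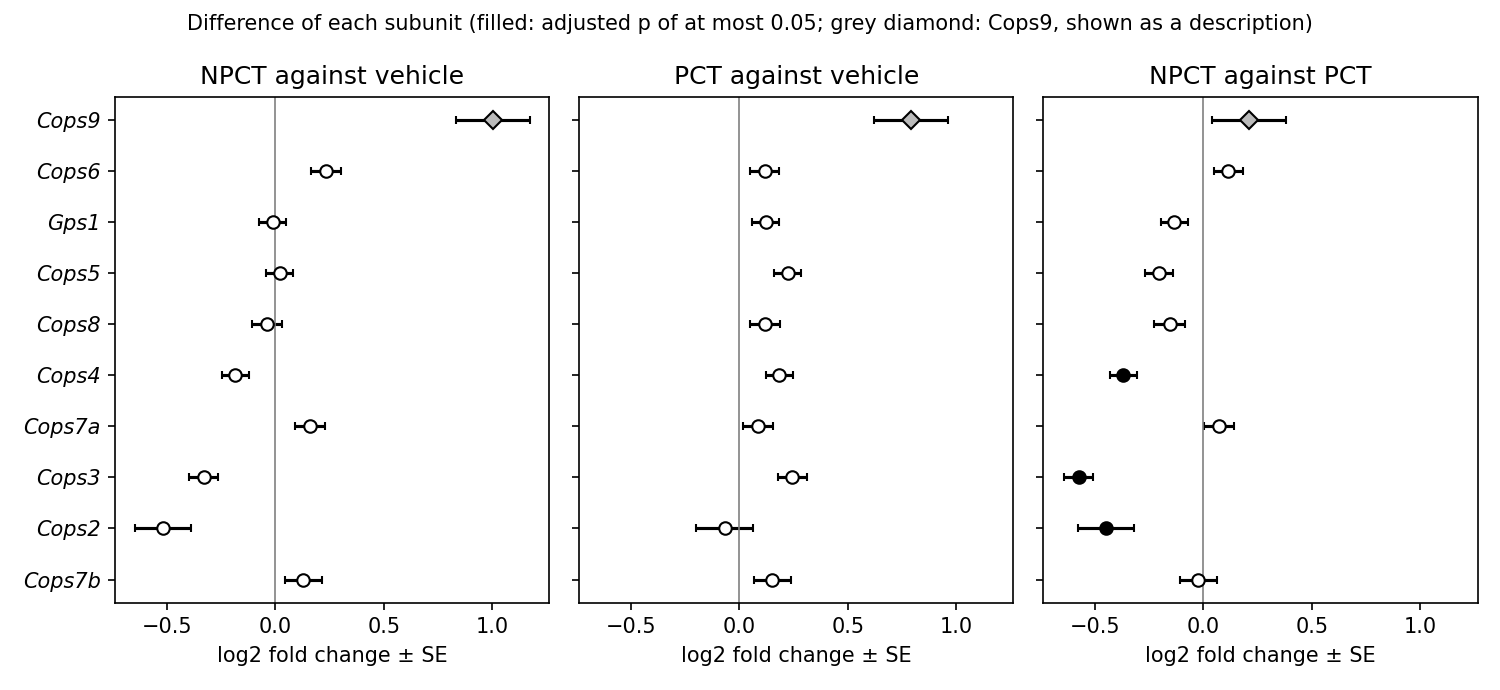
The log2 fold change with its SE (horizontal axis) of each subunit in the comparisons of NPCT with vehicle, PCT with vehicle and NPCT with PCT, from limma over 9 libraries. Filled circles mark Cops2, Cops3 and Cops4, the subunits past an adjusted p of 0.05 in the direct comparison, and the grey diamond marks Cops9, which was selected on its calls against vehicle and is shown as a description.

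Across the 9 subunits other than Cops9, no subunit was a DEG in any of the comparisons in the fit over 9 libraries. With NPCT against vehicle 0 of 9 were called by limma, where 0.219% of all genes were, and 0 of 9 passed the adjusted p alone, where 0.470% did. At an unadjusted p under 0.05, 5 of 9 subunits and 29.3% of all genes passed, and the smallest adjusted p of any gene was 0.0493, so many genes sat just beyond the threshold. The median log2 fold change of the 9 subunits was -0.012, beside 0.006 over all genes, with 4 of 9 above 0. NPCT and vehicle libraries did not overlap for 4 of the 9 subunits, 1 higher (Cops6) and 3 lower (Cops2, Cops3 and Cops4), where 40.3% of all genes did not overlap. The calls of this comparison moved with the processing: in a fit of the NPCT and vehicle libraries alone, Cops2 (limma adjusted p = 0.00788), Cops3 (0.0111) and Cops6 (0.0397) passed, where 18.8% of genes passed, and limma-voom on recovered fragments passed Cops2 and Cops3 (adjusted p = 0.0363 for both), where 9.27% did. Without PCT replicate 3, which is in neither group of this comparison but enters the fit through the shared spread, the filter and the scaling, Cops2 (limma adjusted p = 0.00473), Cops3 (0.00975), Cops4 (0.0435) and Cops6 (0.0406) passed, as 19.3% of genes did. The log2 fold changes of Cops3 and Cops2 stayed between -0.40 and -0.30 and between -0.59 and -0.47 in all 21 settings, with an adjusted p under 0.05 in 8 settings for Cops3 (range 0.00975 to 0.168) and in 3 for Cops2 (0.00473 to 0.177).

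With PCT against vehicle, 0 of 9 subunits were DEGs (2.31% of all genes) and 0 of 9 passed the adjusted p alone (4.20%), by limma and by limma-voom (4.62%), while 3 passed an unadjusted p under 0.05 (18.9% of all genes). The median log2 fold change was 0.12, beside 0.005 over all genes, and 8 of 9 subunits had values above 0, the exception being Cops2 at -0.068, which turned to 0.093 without PCT replicate 3. PCT libraries lay above all vehicle libraries for 6 of 9 subunits (Gps1, Cops3, Cops4, Cops5, Cops6 and Cops8) and below for 0, where 24.9% of all genes did not overlap in either direction. The geometric mean of the 9 subunits was 39.1 ± 0.635 FPKM in vehicle, 42.8 ± 1.19 with PCT and 37.5 ± 1.61 with NPCT (SD, n = 3). By a two-sided exact permutation test it gave p = 0.1 for PCT against vehicle, the smallest value possible with 3 against 3, and p = 0.3 for NPCT against vehicle.

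In the direct comparison of NPCT with PCT, Cops2, Cops3 and Cops4 were lower with NPCT and passed the adjusted p of 0.05. These are 3 of 9 subunits, while 16.3% of all genes passed in either direction and 8.32% were lower. As DEGs, 0 of 9 were called by limma or limma-voom (5.76% of all genes by limma), and 4 of 9 passed an unadjusted p under 0.05, as did 33.1% of all genes. The median log2 difference was -0.16, beside -0.008 over all genes, and 2 of 9 subunits, Cops6 and Cops7a, had values above 0. NPCT libraries lay below all PCT libraries for 4 subunits (Cops3, Cops4, Cops5 and Cops8), where 33.4% of all genes did not overlap. Without PCT replicate 3, Cops2 and Cops3 passed the fold limit as well and became DEGs (10.2% of all genes). Cops5 then passed the adjusted p (0.0316 by limma), as 29.1% of all genes did. Cops3 and Cops4 kept an adjusted p under 0.05 in all 21 settings. Between the peptides Cops3 was a DEG in 5 of these settings and Cops2 in 1. The comparisons share libraries, and the direct comparison is the difference of the values against vehicle. A subunit that was low with NPCT and high with PCT, such as Cops3, therefore differed most between the peptides. Its values in the comparisons are not separate evidence.

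The promoters of Cops2, Cops3 and Cops4 are shown because these were the subunits with an adjusted call between the peptides. They were taken from RefSeq on GRCr8, a later build than that of the expression table, as 250 bases before to 50 after the annotated start, 5′ to 3′ on the strand of the gene. RefSeq entries matched 7 of the 10 subunits. Capitals mark matches on either strand to the CCAAT box, spelled by its own letters, to the core of sites for ETS factors, searched as CGGAAG, to the GC box bound by Sp1, searched as GGGCGG, and to a core of sites for the factor YY1, searched as AAGATGGCG. No matches overlap in these windows.
Cops2, chr3:133563444-133563743, minus strand: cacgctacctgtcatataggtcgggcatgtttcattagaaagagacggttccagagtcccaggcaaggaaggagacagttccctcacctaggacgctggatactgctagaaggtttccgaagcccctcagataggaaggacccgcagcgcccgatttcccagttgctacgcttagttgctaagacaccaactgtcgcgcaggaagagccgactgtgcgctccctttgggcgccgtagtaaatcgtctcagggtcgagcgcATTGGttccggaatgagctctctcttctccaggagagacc
Cops3, chr10:45141022-45141321, minus strand: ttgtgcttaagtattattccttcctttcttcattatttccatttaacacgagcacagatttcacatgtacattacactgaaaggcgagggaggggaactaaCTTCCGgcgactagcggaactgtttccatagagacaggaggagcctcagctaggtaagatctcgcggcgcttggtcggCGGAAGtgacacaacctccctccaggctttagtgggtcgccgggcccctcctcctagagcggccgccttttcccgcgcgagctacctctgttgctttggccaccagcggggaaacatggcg
Cops4, chr14:9413058-9413357, minus strand: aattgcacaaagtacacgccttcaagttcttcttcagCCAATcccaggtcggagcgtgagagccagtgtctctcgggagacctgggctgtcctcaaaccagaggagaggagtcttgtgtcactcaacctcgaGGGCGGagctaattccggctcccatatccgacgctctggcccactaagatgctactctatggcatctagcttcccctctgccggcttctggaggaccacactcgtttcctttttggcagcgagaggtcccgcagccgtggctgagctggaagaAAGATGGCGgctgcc
The Cops2 window held a CCAAT box on the opposite strand, 10 bases after the start. The Cops3 window held ETS cores at 149 and 71 bases before the start, on opposite strands. Cops4 held a CCAAT box 213 bases before the start, a GC box 118 bases before it and the YY1 core 35 bases after it. Over all 33469 promoters of this length, 37.5% held the CCAAT box, 16.6% the ETS core, 33.1% the GC box and 1.73% the YY1 core. Among the 7 subunits with an entry, the CCAAT box occurred in 4 (Cops2, Cops4, Cops7a and Cops7b), the ETS core in 3 (Gps1, Cops3 and Cops7a), the GC box in 4 (Gps1, Cops4, Cops7a and Cops8) and the YY1 core in Cops4. These are matches of letters in a window and were not tested against the expression values.

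The proportion of Cops9 to the rest of the complex differed between the groups. Cops9 stood at 1.78, 1.71 and 2.00 times the geometric mean of the other 9 subunits in vehicle (1.83 ± 0.149). The ratio was 3.96, 3.42 and 4.09 with NPCT (3.83 ± 0.352) and 2.15, 2.96 and 3.77 with PCT (2.96 ± 0.811, SD, n = 3 each). All peptide-treated libraries were above vehicle, as the selection of Cops9 implies, and no test was made. The ratio of Cops2 to Cops6 was 0.529 ± 0.017 in vehicle, 0.314 ± 0.0151 with NPCT and 0.472 ± 0.0976 with PCT, where PCT replicate 3 stood at 0.361. The ratio of Cops3 to Cops6 was 0.598 ± 0.0166 in vehicle, 0.405 ± 0.0186 with NPCT and 0.656 ± 0.0839 with PCT. Both ratios separated NPCT from vehicle without overlap (two-sided exact permutation test, p = 0.1, the smallest value possible), and they restate the fold changes of their members, which were known when the pairs were chosen. The ratio of Cops4 to Cops5 was 0.899 ± 0.101 in vehicle, 0.777 ± 0.0151 with NPCT and 0.872 ± 0.0429 with PCT, and its NPCT libraries overlapped with vehicle (two-sided exact permutation test, p = 0.2).

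**Figure D3:**
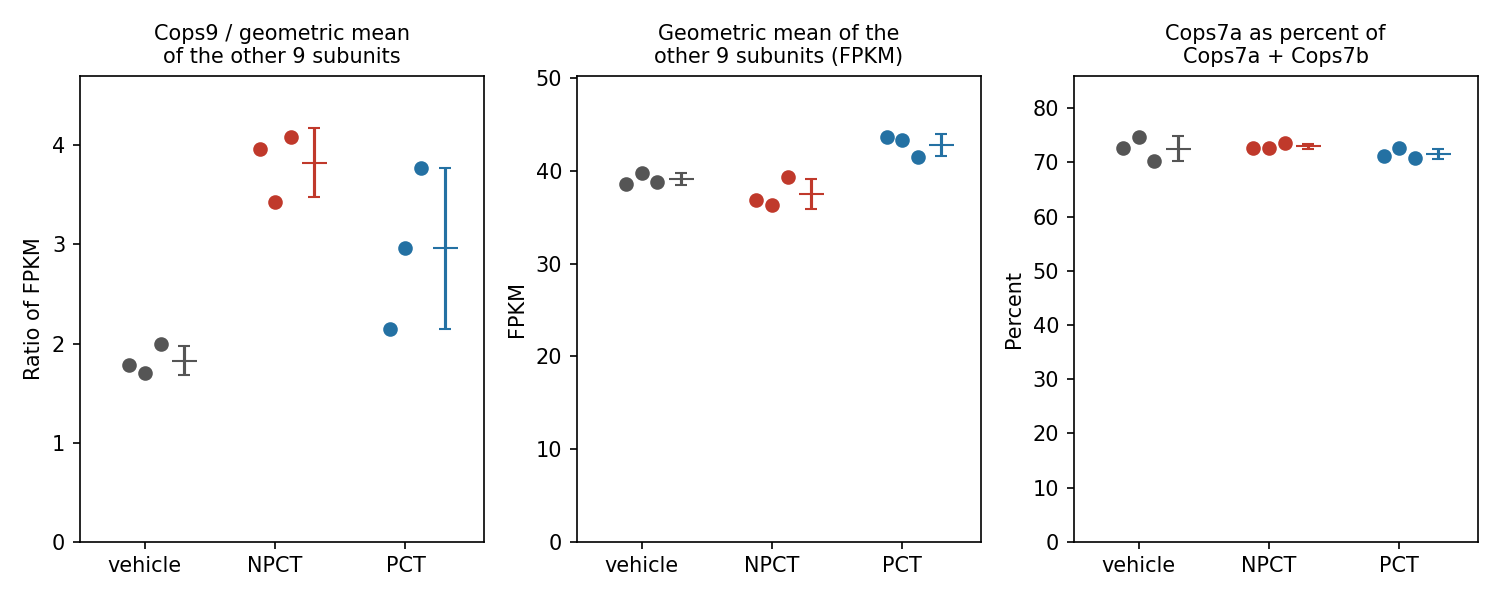
Ratio of Cops9 to the geometric mean of the other 9 subunits, that geometric mean in FPKM, and Cops7a as a percent of Cops7a plus Cops7b (vertical axes from 0), as points for the 3 libraries of each group with mean and SD beside them. The ratio averages 1.83 in vehicle, 3.83 with NPCT and 2.96 with PCT, while the geometric mean averages 37.5 to 42.8 FPKM in the groups (36.3 to 43.7 in single libraries) and the Cops7a share 71.6% to 72.9% (70.2% to 74.8% in single libraries).

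Gene length differed strongly between Cops9 and its partners. Its length in the table was 486 bases, where the median over tested genes was 2136, while the other subunits ran from 1173 (Cops6) to 3491 bases (Cops2). Over the 10 subunits the log2 fold change was lower in longer genes, with Spearman rank coefficients of -0.49 for NPCT and -0.54 for PCT, and over the 9 without Cops9 they were -0.30 and -0.37. Over all 15958 genes the coefficients were -0.22 and -0.14 (a description across genes, which share the libraries). The libraries also differed in how level scaled with length, since the slope of log2 level per doubling of length was -0.026 to -0.019 in the 3 NPCT libraries, -0.028 in PCT replicate 3, 0.022 to 0.027 in the other PCT libraries and -0.0005 to 0.029 in vehicle. With the length trend of each library removed, the log2 fold change of Cops9 was 0.84 with NPCT and 0.70 with PCT. In the same setting, NPCT against vehicle gave -0.40 for Cops3 (limma adjusted p = 0.0463), -0.47 for Cops2 (0.0662) and -0.25 for Cops4 (0.0632), while Cops6, the shortest of these 9 subunits, went from 0.23 to 0.13 (limma adjusted p = 0.177).

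**Figure D4:**
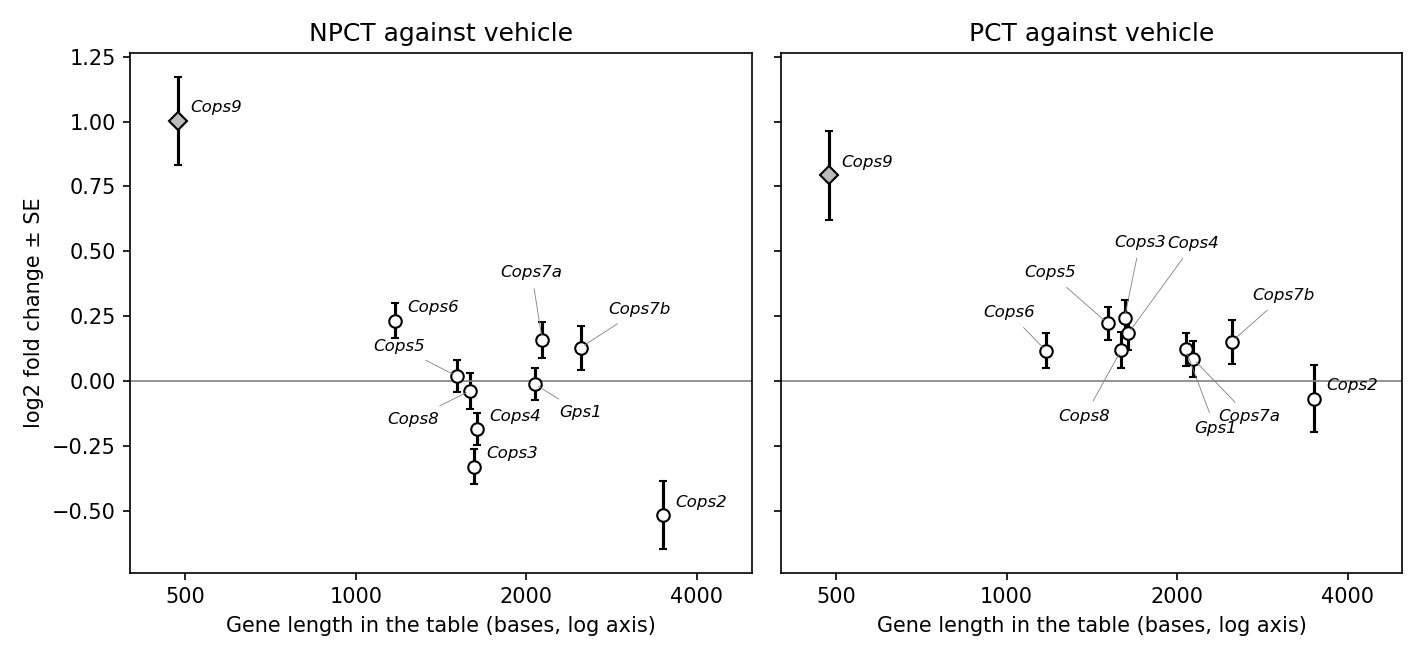
The log2 fold change with its SE (vertical axis) of the 10 subunits against gene length in bases (log axis), for NPCT and PCT against vehicle. Cops9, the grey diamond at 486 bases, is highest in both panels, and Cops2 at 3491 bases is lowest in both.

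Across the 9 libraries, the genes whose log2 level ran most like Cops9 were Sem1, Pfdn2, Mrps26, Lamtor2, Tnks1bp1, Pfdn6, Rps16 and Rpl15 (Pearson's r of 0.994 to 0.979, as a description over libraries of 3 groups). Sem1, the smallest subunit of the proteasome lid, had the highest coefficient. It read 27.9, 27.3 and 28.4 FPKM in vehicle, 51.1, 47.9 and 57.3 with NPCT, and 33.8, 46.2 and 56.2 with PCT, so that PCT replicate 1 was nearest to vehicle as for Cops9. Pfdn2 and Pfdn6, subunits of the chaperone prefoldin, had log2 fold changes of 0.76 and 0.99 with NPCT and of 0.68 and 0.88 with PCT. Mrps26 of the mitochondrial ribosome gave 0.78 and 0.62, and Lamtor2 of the lysosomal Ragulator complex gave 0.75 and 0.59. The ribosomal protein genes Rps16 (0.49 and 0.37) and Rpl15 (0.49 and 0.49) and the tankyrase-binding Tnks1bp1 (0.36 and 0.29) had smaller values.

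Of the other subunits, Cops6 ran most like Cops9 (r = 0.898, rank 302 among tested genes), followed by Cops7a (0.693) and Cops7b (0.66). Cops5 (0.336), Gps1 (0.114) and Cops8 (0.028) had low coefficients, and those of Cops4 (-0.22), Cops3 (-0.31) and Cops2 (-0.68) were negative. Among pairs of subunits the highest coefficient was that of Cops3 with Cops4 (0.96), and the lowest was that of Cops2 with Cops9. These coefficients describe 9 shared libraries in 3 groups and carry no p. Short RNA or pseudogene annotations lie within Cops3, Cops6 and Cops7a, at 0 to 1.16 FPKM on average. Cops9 overlaps no annotated gene in the table. Its nearest neighbours were Olfr12, 16599 bases before its start coordinate, at 0.039 FPKM on average, and Otos, 2151 bases after its end coordinate, at 0.328 FPKM on average, so neither was near the level of Cops9.

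The neddylation list holds NEDD8, the enzymes and helpers that attach it to cullins, and genes that process NEDD8, lower it or exchange cullin partners. Of its 15 tested genes, 1 rose with NPCT by the adjusted p and 0 fell, where 0.470% of all genes passed. That call was lost without vehicle replicate 3 and without NPCT replicate 2 or 3, where 0 of all genes passed. It was also lost with a straight length slope removed, where 2 of all genes passed and 0 of them were higher. Without vehicle replicate 1 or 2, PCT replicate 2 or NPCT replicate 1, only 1 or 2 of all genes passed. By limma-voom 3 genes of the list were higher (Ube2m, Rbx1 and Nedd8) and 2 lower (Dcun1d1 and Dcun1d4), where 9.27% of all genes passed, and 2 of these list genes were DEGs (2.22% of all genes). At an unadjusted p under 0.05 there were 10 of 15 (29.3% of all genes). The gene called by limma was Ube2m, the NEDD8-conjugating enzyme, which read 57.7, 63.3 and 59.4 FPKM in vehicle, 93.4, 81.5 and 90.0 with NPCT, and 67.5, 67.2 and 71.9 with PCT. Its log2 fold change with NPCT was 0.55 (SE 0.067, limma adjusted p = 0.0493), 1.47-fold and so below the DEG limit. Rbx1, the RING subunit of the ligases, was at 85.7 ± 6.68 FPKM in vehicle and 132 ± 12.8 with NPCT (log2 fold change 0.62, limma adjusted p = 0.053). NEDD8 itself was at 101 ± 2.53 FPKM in vehicle, 127.5 ± 11.8 with NPCT and 129 ± 13.5 with PCT (SD, n = 3), at log2 fold changes of 0.33 and 0.35 (limma adjusted p = 0.0613 and 0.0633).

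Dcun1d1, which helps transfer NEDD8 to cullins, was at 9.72 ± 1.31 FPKM in vehicle and 6.10 ± 0.442 with NPCT (log2 fold change -0.66, limma adjusted p = 0.0509). Its relative Dcun1d3 had the smallest p with PCT (0.43, limma adjusted p = 0.058). There 0 of 15 genes passed by limma (4.20% of all genes) or limma-voom (4.62%), and 5 had an unadjusted p under 0.05 (18.9%). In the direct comparison Ube2m (0.36) and Cand2 (0.42) were higher with NPCT, and Dcun1d1 (-0.47), Nae1 (-0.49) and Uba3 (-0.30), the last 2 forming the NEDD8-activating enzyme, were lower, as was the exchange factor Cand1 (-0.30, limma adjusted p of 0.0123 to 0.0485 for the 6 genes), where 16.3% of all genes passed. All but Cand1 also passed by limma-voom. The median log2 fold changes of the list were 0.051 with NPCT, 0.13 with PCT and -0.052 in the direct comparison.

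Of 13 tested genes of cullins, which carry NEDD8, and their adaptors and regulators, 0 passed with NPCT against vehicle by limma (0.470% of all genes). At an unadjusted p under 0.05 there were 9 of 13 (29.3% of all genes), and 4 (Cul2, Cul3, Cul4b and Skp1) passed and were lower by limma-voom, where 9.27% of all genes passed in either direction. The median log2 fold change was -0.26 with NPCT, beside 0.006 over all genes, and 0.034 with PCT, and 4 of 13 had values above 0 with NPCT (Cul4a 0.11, Cul9 0.27, Dda1 0.31 and Elob 0.17). The NPCT libraries lay below all vehicle libraries for 7 genes and above for 2, where 40.3% of all genes did not overlap. Skp1, the adaptor of F-box proteins and the most abundant gene of the list, read 387.5, 411 and 385 FPKM in vehicle, 292.5, 314 and 339 with NPCT, and 438, 421 and 382 with PCT (log2 fold change -0.33 with NPCT, limma adjusted p = 0.0534). The scaffold Cul4b was at 18.0 ± 1.09 FPKM in vehicle and 12.5 ± 1.18 with NPCT (-0.52, limma adjusted p = 0.0516), and Cul2 was at 24.5 ± 1.13 and 18.1 ± 0.893 FPKM (-0.43, limma adjusted p = 0.0525). With PCT, 0 of 13 passed by limma (4.20% of all genes) or limma-voom (4.62%), and 0 had an unadjusted p under 0.05 (18.9%). Between the peptides, where 16.3% of all genes passed and 8.32% were lower with NPCT, 6 genes were lower with NPCT (Skp1, Cul1, Cul2, Cul3, Cul4b and Glmn, by -0.50 to -0.30) and Cul9 was higher (0.42), at limma adjusted p of 0.0101 to 0.0477. All but Cul1 also passed by limma-voom.

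Of 30 tested substrate receptors, which choose the proteins to be ubiquitinated, 1 was a DEG with each peptide, where 0.219% of all genes were DEGs with NPCT and 2.31% with PCT. Fbxo2, a receptor for glycoproteins enriched in neurons, rose with NPCT (log2 fold change 1.05, SE 0.17, limma adjusted p = 0.0493). It read 33.6, 36.8 and 39.7 FPKM in vehicle, 80.6, 67.3 and 81.4 with NPCT, and 41.5, 45.2 and 67.7 with PCT. This call was lost without vehicle replicate 3 and without NPCT replicate 2 or 3, where 0 of all genes passed the adjusted p. It was also lost with a straight length slope removed, where 2 of all genes passed and 0 of them were higher. Only 1 or 2 of all genes passed without vehicle replicate 1 or 2, PCT replicate 2 or NPCT replicate 1. Asb2, a SOCS-box receptor, fell with PCT and read 0.882, 1.13 and 1.22 FPKM in vehicle, 0.228, 0.264 and 0.128 with PCT, and 1.83, 1.05 and 2.19 with NPCT (log2 fold change -1.96 with PCT, SE 0.37, limma adjusted p = 0.0226). These are low levels, resting on 6 to 10 fragments in each PCT library, 36 to 47 in vehicle and 40 to 90 with NPCT. Keap1, the receptor for the antioxidant factor Nrf2, was at 14.7 ± 0.794 FPKM in vehicle and 20.6 ± 2.02 with NPCT (0.48, limma adjusted p = 0.0509). In the direct comparison Fbxo2, Keap1 and Asb2 were higher with NPCT, and Crbn and Ercc8 were lower, 5 of 30 genes where 16.3% of all genes passed. By limma-voom Ercc8 did not pass there, while Dcaf8 and Fbxo31 were also higher, and against vehicle Fbxo2 and Keap1 were higher and Crbn lower with NPCT, where 9.27% of all genes passed. The list medians were -0.021, 0.031 and -0.092 in the NPCT, PCT and direct comparisons.

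Values in the related complexes overlapped with those of the signalosome and also reached beyond them. Sem1 of the lid was at a log2 fold change of 0.90 with NPCT (limma adjusted p = 0.0509), where the 9 subunits ran from -0.52 to 0.23, and Eif3h was at -0.84 with PCT (limma adjusted p = 0.483), where the subunits ran from -0.068 to 0.24. Of 9 proteasome lid genes, 0 passed the adjusted p with NPCT by limma, where 0.470% of all genes passed. At an unadjusted p under 0.05 there were 3 (29.3% of all genes), and by limma-voom there were 2, Sem1 and Psmd14 (9.27% of all genes). With PCT, Psmd12 (39.2 ± 2.24 FPKM in vehicle and 52.0 ± 2.32 with PCT, log2 fold change 0.41, limma adjusted p = 0.018) and Sem1 (0.67, limma adjusted p = 0.0497) rose, where 4.20% of all genes passed in either direction, and Sem1 was the DEG. At an unadjusted p under 0.05 there were 6 of 9 with PCT (18.9% of all genes). Psmd6, Psmd7, Psmd12 and Psmd14 were lower with NPCT than with PCT (-0.28 to -0.23), as were 8.32% of all genes. Of 11 tested eIF3 genes, 0 passed with NPCT by limma (0.470% of all genes). In that comparison 4 had an unadjusted p under 0.05 and Eif3g passed by limma-voom, near the shares of 29.3% and 9.27% over all genes. Eif3d (0.36) and Eif3j (0.29) rose with PCT (limma adjusted p = 0.0271 and 0.0411), and of these Eif3d also passed by limma-voom (4.62% of all genes). At an unadjusted p under 0.05 there were 6 of 11 with PCT, again beside 18.9%. Eif3c, Eif3d, Eif3j and Eif3m were lower with NPCT than with PCT (-0.48 to -0.22), all but Eif3c also by limma-voom, where 16.9% of all genes passed in either direction. The medians of NPCT against PCT were -0.20 for the lid and -0.16 for eIF3, beside -0.16 for the 9 signalosome subunits. They were -0.22 for the cullins and adaptors, -0.092 for the substrate receptors and -0.052 for the neddylation list. A shift of this kind was therefore seen in several lists, and it was not tested whether the signalosome differs from them.

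**Figure D5:**
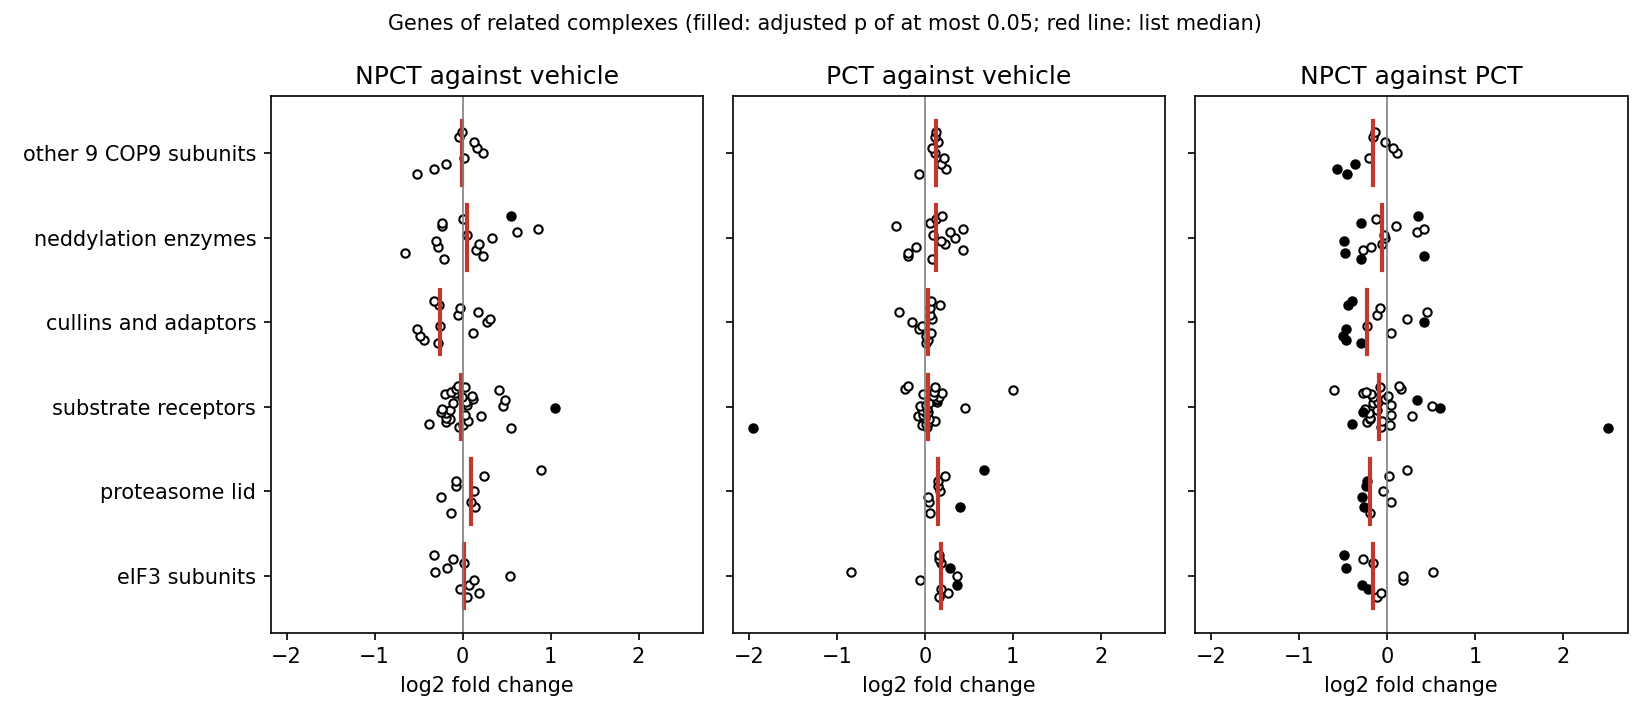
The log2 fold change (horizontal axis) of each tested gene in the 9 signalosome subunits other than Cops9, the neddylation enzymes, cullins and adaptors, substrate receptors, proteasome lid and eIF3, with filled points where the adjusted p passed 0.05 and a red line at the median. The cullin median is -0.26 with NPCT, 0.034 with PCT and -0.22 in the direct comparison. There the medians of the signalosome, the lid and eIF3 lie at -0.16, -0.20 and -0.16.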

How the data were processed

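RNA-seq libraries of rat hippocampal neurons (3 each of vehicle, NPCT and PCT) were analysed from the FPKM table that the authors deposited, with groups taken from the sample labels. Per the study's methods and the submitters' processing notes, the authors aligned reads with HISAT2 2.0.5 to Rnor_6.0, counted fragments per gene with featureCounts 1.5.0-p3 and used DESeq2 1.20.0. The FPKM values were made by the authors with an effective library total, 0.977 to 1.03 times the summed fragments, and median-of-ratios scaling over the 9 libraries gave a factor of 1 for each. This scaling was estimated anew wherever libraries were left out. Whole fragments were recovered for 100.0% of values (within 0.1 fragment).

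Genes whose FPKM averaged 0.5 or more were tested with limma 3.58.1 in R 4.3.3 on log2(FPKM + 0.1), which understates changes of low genes, with an intensity-trended prior, 1 mean per group over 9 libraries and Benjamini-Hochberg adjustment over 15958 genes. The study's own limits for DEGs were used, a fold change above 1.5 with adjusted p no higher than 0.05. Means are given with SD. Single quantities were compared by two-sided exact permutation tests. The pipeline was tested on simulated data. Figures were drawn with matplotlib 3.10.9.

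The members and gene lists were chosen with earlier results of these data known. Named were all 10 subunits, the 8 genes most correlated with Cops9, and genes overlapping or next to a member. Of each list, the 2 most abundant genes and the 2 with the smallest p against vehicle were to be named. Of these, Ddb1, Psmd13, Eif3f, Dcaf7 and Socs3 were left out of the Results. Their log2 fold changes were -0.052, 0.090, 0.13, -0.19 and 0.41 with NPCT. With PCT they were 0.060, 0.048, -0.056, 0.0025 and 1.01 (limma adjusted p of 0.084 to 0.99 against vehicle). List genes past an adjusted p were also named after their values were seen. Alternatives covered the pseudocount, the filter, quantile normalization, fits of 2 groups, a replicate block, removal of length trends, limma-voom on recovered fragments and leaving out each library.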

Additional observations from a re-analysis of the deposited data

How the results depend on the processing

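Calls for NPCT against vehicle depended most on the processing. The number of DEGs over all genes was 35 in the main fit, 9 without a filter, 208 at a mean FPKM of at least 1, 189 after quantile normalization, 122 with the length trend removed, 2 with a straight length slope removed, 355 by limma-voom, 580 in the fit of 2 groups, 560 without PCT replicate 3, 223 without PCT replicate 1 and 0 to 2 without any other single library. The cause was not tested. For PCT against vehicle the number was 368, with 172, 210 and 188 without vehicle replicates 1, 2 and 3 and 259 to 391 without others. Between the peptides it was 919, with 477 in the fit of 2 groups, 1625 without PCT replicate 3, 527 and 530 without PCT replicates 1 and 2, 575 without NPCT replicate 1 and 628 to 786 without others.

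Among the subunits other than Cops9, small medians moved. For NPCT against vehicle the median was -0.054 after quantile normalization, -0.058 with the length trend removed and -0.065 to 0.028 leaving out single libraries. For PCT against vehicle it was 0.080 after quantile normalization, and between the peptides it was -0.20 to -0.11 leaving out single libraries. The count of DEGs between the peptides was 1 with the length trend removed, 3 by adjusted p alone and 0 to 2 leaving out single libraries. Signs turned only near 0 for NPCT against vehicle: Cops5 was -0.025 after quantile normalization and -0.058 with the length trend removed, and leaving out single libraries gave -0.013 to 0.066 for Cops5, -0.065 to 0.014 for Gps1 and -0.079 to 0.028 for Cops8. The same held for Cops2 with PCT (-0.17 to 0.093) and Cops7b between the peptides (-0.088 to 0.039). These causes were not tested.

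The replicate numbers did not pair the libraries, as deviations of equal numbers correlated at -0.073 to 0.034 between groups. With the replicate block the DEGs were 319, 323 and 886 in the NPCT, PCT and direct comparisons, Cops3 reached an adjusted p of 0.0439 for NPCT against vehicle and Cops2 missed it between the peptides (0.0639). In this balanced design the block leaves the fold changes as they are.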
